A study of Mus musculus with 2 samples.

Results

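The Dlk1-Meg3 locus on the distal part of mouse chromosome 12 was described from the reads of 4 annotated genes, Dlk1, Meg3, Rian and Mirg. They were taken by gene symbol from the transcript tables, with every transcript model counted, and are 4 of 18177 annotated genes with reads. They held 41 of 112272 transcript models in replicate 1 and 42 of 112771 in replicate 2, spike-in models left out. In the mm10 build with the GENCODE M21 annotation, all 4 lie on the plus strand. From the start of Dlk1 to the end of Mirg they span 296638 bases. The gap between Dlk1 and Meg3 is 77664 bases, that between Meg3 and Rian 32213 bases, and that between Rian and Mirg 68047 bases.

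The series measured long-read RNA in adrenal gland of male B6CASTF1/J mice, an F1 hybrid of C57BL/6J and CAST/EiJ, at an age of 14 days. It held a single group of 2 libraries with no treatment named, biological replicates 1 and 2, so there was no contrast between conditions and each test compared the libraries. The labels name a set of 3 males, carry the same donor identifier for both libraries and number the biosamples 3 (replicate 1) and 4 (replicate 2). Separate animals are therefore not shown, and a p-value measures only counting error between these libraries.

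The locus is imprinted, which means that a gene is read from the copy of a single parent. Dlk1 and Rtl1 are known as genes of the paternal copy, while Meg3, Rian and Mirg are noncoding RNAs of the maternal copy that also host many small RNAs, snoRNAs in Rian and microRNAs in Mirg. A methylated control region between Dlk1 and Meg3 sets which genes are read. Dlk1 protein is a transmembrane relative of the Notch ligands, also called preadipocyte factor, whose outer part can be shed. In the adrenal it has been described in chromaffin cells and in cells near the capsule. The deposited counts do not separate the parental copies, so parent of origin was not measured here.

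Replicate 1 had 964679 and replicate 2 had 984958 reads outside ERCC spike-ins, and these are the denominators of levels in CPM, reads per 1000000. A count of 0 was taken to allow 3 reads, so a gene with no read lay under 3.11 CPM (replicate 1) or 3.05 CPM (replicate 2). Of 11094 genes with at least 10 reads, 1017 (9.17%) differed between the libraries in the exact binomial test, 483 higher in replicate 2 and 534 higher in replicate 1. With TMM scaling 872 (7.86%) differed, 664 of them higher in replicate 2, and the median log2 ratio over all genes tested moved from -0.15 to 0.00. Replicate 2 stood apart by liver transcripts: all 8 liver markers tested were higher there, and the 9 markers summed to 757 CPM in replicate 1 and 15659 CPM in replicate 2. Neuron and Schwann cell markers differed the other way, with 6 of 8 tested higher in replicate 1 (5 with TMM scaling), a median log2 ratio of -1.75 and sums of 381 and 223 CPM. Adrenal markers were present in both, with 9667 and 9440 CPM over 10 chromaffin genes and 10737 and 7796 CPM over 6 genes of the zona fasciculata. Over 8 genes of the zona glomerulosa the sums were 2589 and 2298 CPM. Of these lists, 2 chromaffin, 3 fasciculata and 2 glomerulosa genes were higher in replicate 1, and 1 fasciculata gene in replicate 2, beside 9.17% of all genes called. With TMM scaling the fasciculata counts stayed, 1 glomerulosa gene was higher in replicate 1 and 2 chromaffin genes in replicate 2. Fat transcripts were also present, with 12935 and 12858 CPM over 10 adipose genes, most of them not particular to brown fat. Of the brown fat markers among them, Ucp1 had 1949 and 2065 CPM and Cidea 3130 and 3045 CPM.

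The internal splicing of the last Dlk1 exon rests on a short coding stretch. It is printed here from the GENCODE M21 transcript Dlk1-205, whose sequence is that of C57BL/6J (chr12:109459863-109460147, plus strand). Capitals mark the internal intron with the most reads of those found, although most reads kept the exon whole.
Dlk1 stretch: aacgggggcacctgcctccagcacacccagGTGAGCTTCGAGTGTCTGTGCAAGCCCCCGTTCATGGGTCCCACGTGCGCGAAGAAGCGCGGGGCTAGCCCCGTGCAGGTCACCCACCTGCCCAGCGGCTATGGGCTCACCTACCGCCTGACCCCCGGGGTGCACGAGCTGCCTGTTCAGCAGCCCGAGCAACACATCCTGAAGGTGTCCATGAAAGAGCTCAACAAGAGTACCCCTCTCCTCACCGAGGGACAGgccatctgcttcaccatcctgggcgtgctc

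Reads used 2 donors and 5 acceptors in this stretch or just upstream of it, where the donor at 109459833 lies. Each is shown in a window of 20 bases because the forms differ only by which pair is joined. Capitals mark the first bases of the intron at a donor and the last bases of the intron at an acceptor, and each is named by the first or last base of its intron.
donor 109459833: cagccgcccgGTgagcaact
donor 109459893: gcacacccagGTgagcttcg
acceptor 109460042: gcctgttcAGcagcccgagc
acceptor 109460045: tgttcagcAGcccgagcaac
acceptor 109460066: catcctgaAGgtgtccatga
acceptor 109460111: cctcaccgAGggacaggcca
acceptor 109460117: cgagggacAGgccatctgct

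A microRNA of the locus is shown because its host carried reads. The mature arms of miR-3072, from RefSeq on GRCm38.p6, come from a hairpin (chr12:109747878-109747960) that the Mirg model with the most reads overlaps, and their seeds, bases 2 to 8, are in capitals.
mmu-miR-3072-5p: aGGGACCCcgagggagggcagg
mmu-miR-3072-3p: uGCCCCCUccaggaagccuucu

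Dlk1 was the most abundant of the 4 genes, followed by Meg3, while Rian and Mirg were near the limit of detection. A long read was taken to stand for a single molecule, so levels were compared between genes without division by length. The counts carry no molecular identifiers, so copies of the same molecule cannot be told apart. Any loss of long molecules in the library was not corrected. In bulk tissue, fewer cells of a type and less RNA per cell cannot be told apart. Dlk1 (ENSMUSG00000040856.17, chr12:109452823-109463336, protein coding) had 364 reads in replicate 1 and 343 in replicate 2, or 377 and 348 CPM. Its mean of 363 ± 20.6 CPM (SD, n = 2) ranked 425 among the 18177 genes. Meg3, the noncoding RNA at chr12:109541001-109571726, had 85 and 81 reads, or 88.1 and 82.2 CPM, with a mean of 85.2 ± 4.15 CPM (SD, n = 2) and rank 2293. In both genes the libraries lay close together, with replicate 1 slightly the higher.

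Rian, the snoRNA host at chr12:109603940-109661716, had 5 and 8 reads assigned to it, or 5.18 and 8.12 CPM. Its mean was 6.65 ± 2.08 CPM (SD, n = 2) and its rank 10213. Mirg, the microRNA host at chr12:109729764-109749460, had 0 reads in replicate 1 and 5 reads, 5.08 CPM, in replicate 2. The 5 reads of replicate 2 stood 1.63-fold above a floor of 3 reads in replicate 1, which leaves out counting error in replicate 2. The exact Poisson 95% intervals of Mirg, 0 to 3.82 CPM in replicate 1 and 1.65 to 11.8 CPM in replicate 2, overlapped. A difference between the libraries is therefore not shown, and Mirg had too few reads for a test. Dlk1 exceeded Meg3 by 4.28-fold in replicate 1 (95% exact interval 3.37 to 5.49) and by 4.23-fold in replicate 2 (3.32 to 5.46). The 2 values of Dlk1 did not overlap those of Meg3, and both were above those of Rian and Mirg. Rian and Mirg could not be put in order beyond counting error, since the exact Poisson interval of Rian in replicate 2, 3.51 to 16.0 CPM, overlapped that of Mirg, 1.65 to 11.8 CPM. These intervals cover counting error only.

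**Figure D1:**
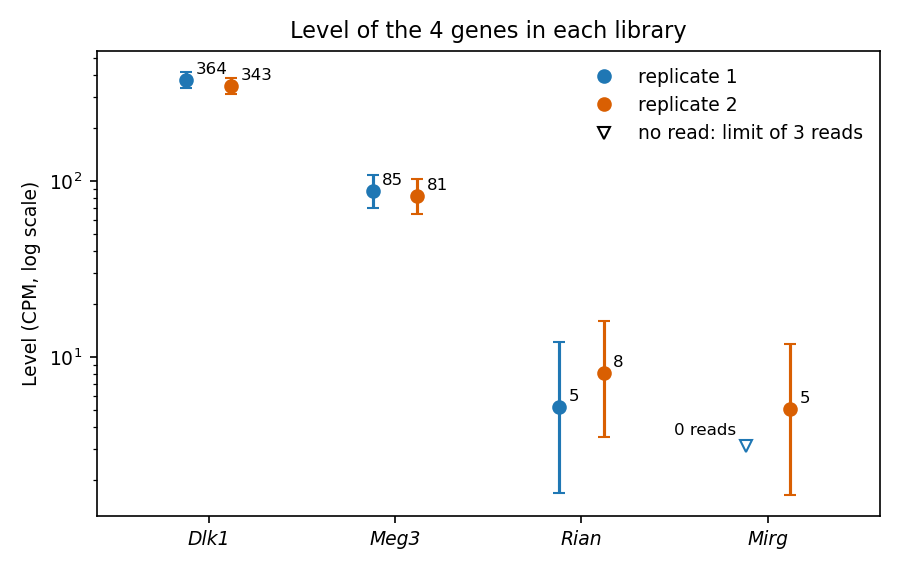
Level of Dlk1, Meg3, Rian and Mirg in CPM on a log axis, with a point for each library, its exact 95% Poisson interval as a bar and its number of reads beside it. The open triangle marks Mirg in replicate 1, which had no read, at the limit of 3.11 CPM. Dlk1 sits at 377 and 348 CPM, Meg3 at 88.1 and 82.2 CPM.

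None of the 3 genes tested was called between the libraries, beside 9.17% of all genes tested. For Dlk1 the ratio of replicate 2 to replicate 1 was 0.923 (95% exact interval 0.794 to 1.07, adjusted p = 0.651 in the exact binomial test with Benjamini-Hochberg adjustment over all genes tested). For Meg3 it was 0.933 (0.680 to 1.28, adjusted p = 0.926 in the same exact test), and for Rian 1.57 (0.452 to 6.09, adjusted p = 0.860 in the same exact test). With TMM scaling the ratios of Dlk1 and Meg3 were 1.03 and 1.04, on the other side of 1, and neither passed the threshold. The intervals of Meg3 and Rian also include sizeable differences, so their levels are not shown to be equal. Capsule and fibroblast markers summed to 2071 CPM in replicate 1 and 1310 CPM in replicate 2, and 3 of 8 tested were higher in replicate 1 (2 with TMM scaling), beside 9.17% of all genes called in either direction. Col3a1 and Col1a1, collagen genes with 1254 and 711 and 409 and 276 reads, made up most of that difference, while the median log2 ratio of the 8 was 0.03, beside -0.15 over all genes. The part that these and the liver transcripts have in the levels of Dlk1 was not tested. Afp, a gene of fetal liver, had 3 reads and 1 read.

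Most Dlk1 reads followed annotated splicing from a first exon to the last. Full-splice reads, those whose intron chain is known, new in catalog (known sites joined in a way the annotation lacks) or new not in catalog (with a site outside the annotation), were 336 of 364 (92.3%, Wilson 95% interval 89.1 to 94.6) in replicate 1. In replicate 2 they were 308 of 343 (89.8%, 86.1 to 92.6), and the median over 8215 genes was 87.4%. The share did not pass the test (adjusted p = 1 in Fisher's exact test with Benjamini-Hochberg adjustment), as for all but 0.876% of the genes tested. Dlk1-205, a transcript of 5 exons that keeps the last exon whole, had 235 and 217 reads. That is 69.9% and 70.5% of the full-splice reads of Dlk1 (adjusted p = 1 in the same exact test, in which 0.125% of genes were called).

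Dlk1-208, which removes the 225-base intron shown above, was next with 69 and 56 reads. Dlk1-206 had 9 and 9 reads, Dlk1-203 had 7 and 10, Dlk1-207 had 3 and 4, and Dlk1-204 had 3 and 2. Dlk1-201 had 2 and 2 reads and Dlk1-202 a single read in each library, so all 8 known models with reads were seen in both. The known models carry their annotated ends in the tables, so their ends are not those of the reads. A new in catalog chain that joined the donor at 109459893 to the acceptor at 109460042 had 5 and 4 reads. Across libraries, 10 of 19 spliced chains of Dlk1 were shared, and they held 641 of 652 spliced reads.

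**Figure D2:**
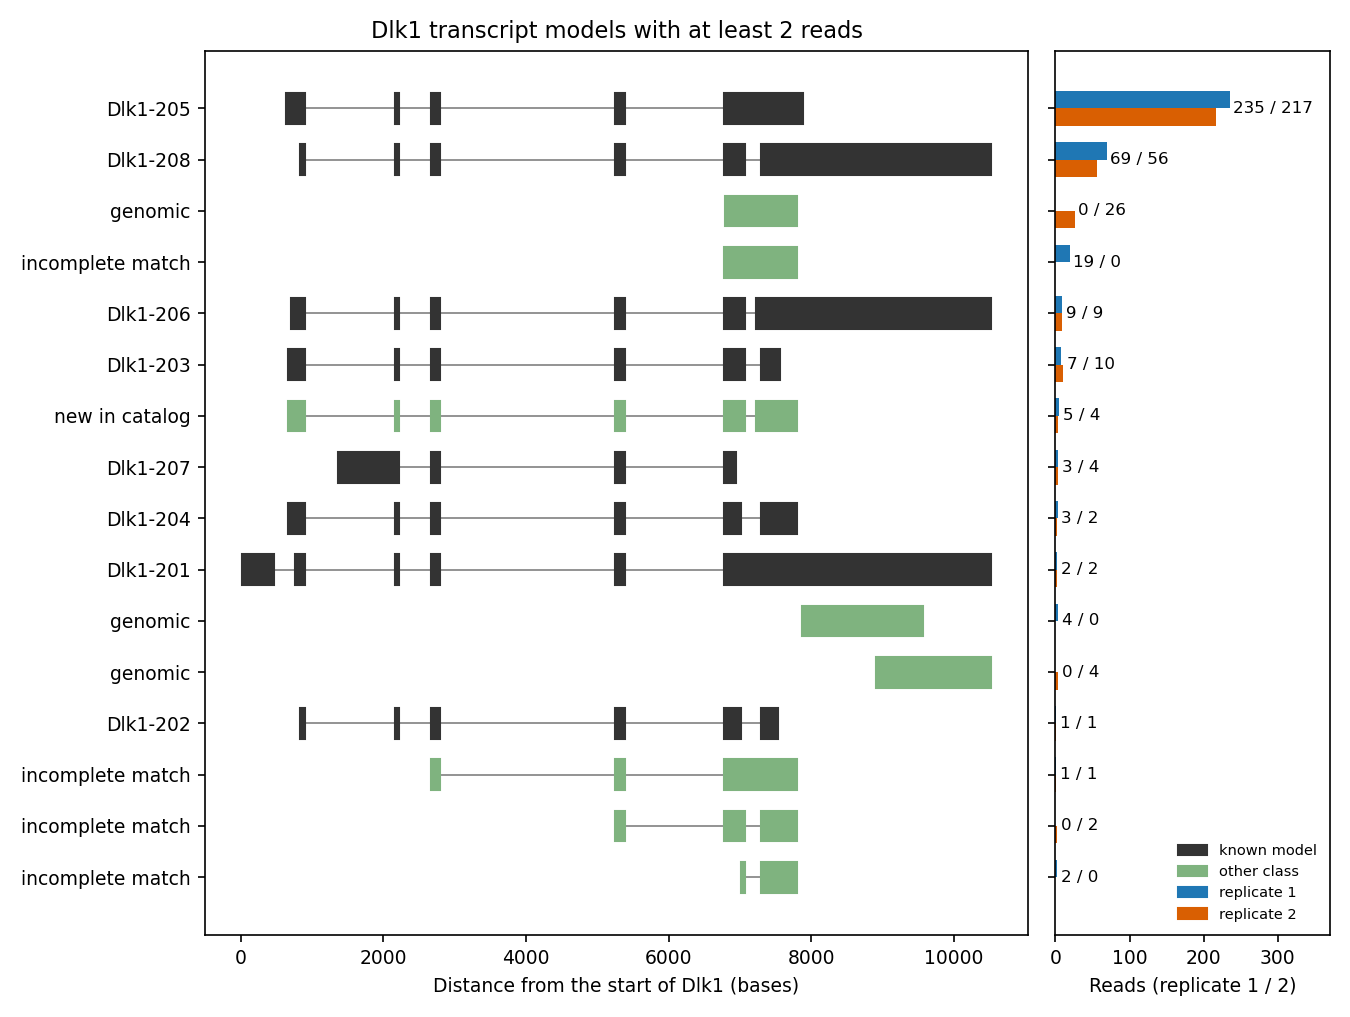
Transcript models of Dlk1 with at least 2 reads over both libraries, drawn to scale by distance from the start of the gene in bases, with boxes for exons and lines for introns. Bars on the right give the reads in each library, led by Dlk1-205 with 235 and 217 and Dlk1-208 with 69 and 56. Known models take the ends of the annotation.

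First exons of Dlk1 were used unevenly. The first exon that ends at the donor of Dlk1-205 was in 331 and 301 reads. The upstream first exon of Dlk1-201 was in 2 and 3 reads, and the first exon of Dlk1-207, which starts inside the first intron, was in 3 and 4. A further 4 and 4 spliced reads started in the third exon or later, and 24 and 31 reads were single-exon models inside the last exon in its longest annotated form. The largest of those was a model of 1012 bases in replicate 1 with 19 reads, classed as an incomplete splice match (a piece of an annotated chain), and of 999 bases in replicate 2 with 26 reads, classed as genomic (aligned across a gene without its splicing). They end at the same base and begin 13 bases apart at the start of the last exon, although their classes differ.

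Of the Dlk1 reads whose models reach across the spliced region of the last exon, 26.5% over both libraries had lost part of it. Known models held 326 of these 354 reads in replicate 1 and 297 of 333 in replicate 2. Those models carry annotated ends, so whether each read without an internal intron crossed the region is not shown. The 3 and 4 reads of Dlk1-207 were left out, since that model ends before the region. The annotated coding sequence of Dlk1-205 has 1155 bases, or 385 codons without the stop, and 751 of its bases are in the last exon. That exon encodes a large part of the outer region, not only the stretch next to the membrane, and also the membrane span and the inner tail. Which protein parts the internal introns remove was not examined. In replicate 1, 95 of 354 reads (26.8%, Wilson 95% interval 22.5 to 31.7) removed an internal intron. In replicate 2, 87 of 333 reads (26.1%, 21.7 to 31.1) did. A two-sided Fisher's exact test between the libraries gave p = 0.863. The other 259 and 246 reads were in models that keep the exon whole.

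Of 7 internal introns, all 7 began with GT and ended with AG, all 7 removed a whole number of codons, and 6 are annotated. The 225-base intron, 75 codons of the annotated frame (coding bases 691 to 915), was in 70 reads (19.8%, 16.0 to 24.2) in replicate 1 and 60 reads (18.0%, 14.3 to 22.5) in replicate 2. The 153-base intron, 51 codons, was in 9 and 9 reads, the 219-base intron, 73 codons, in 7 and 10, and the 150-base intron, 50 codons, in 5 and 4. Introns of 285 bases (95 codons) and 279 bases (93 codons) from the upstream donor had 3 and 2 reads and 1 and 1 read. The remaining intron of 174 bases, which is not in the annotation, had 1 read in replicate 2.

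The donor at 109459893 served 91 and 84 reads, and that at 109459833, which lies 60 bases upstream, served 4 and 3. Among acceptors, the one at 109460117 had 73 and 62 reads, and the one 6 bases before it, at 109460111, had 8 and 11. The acceptor at 109460045 had 9 and 9 reads, that at 109460042, 3 bases away, had 5 and 4, and that at 109460066 had 0 and 1. The same pair of sites therefore led in both libraries, and each minor acceptor other than 109460066 was seen in both. Upstream of this region, 336 and 310 reads entered the last exon at its annotated start, while 2 and 1 reads entered it 13 bases further in.

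**Figure D3:**
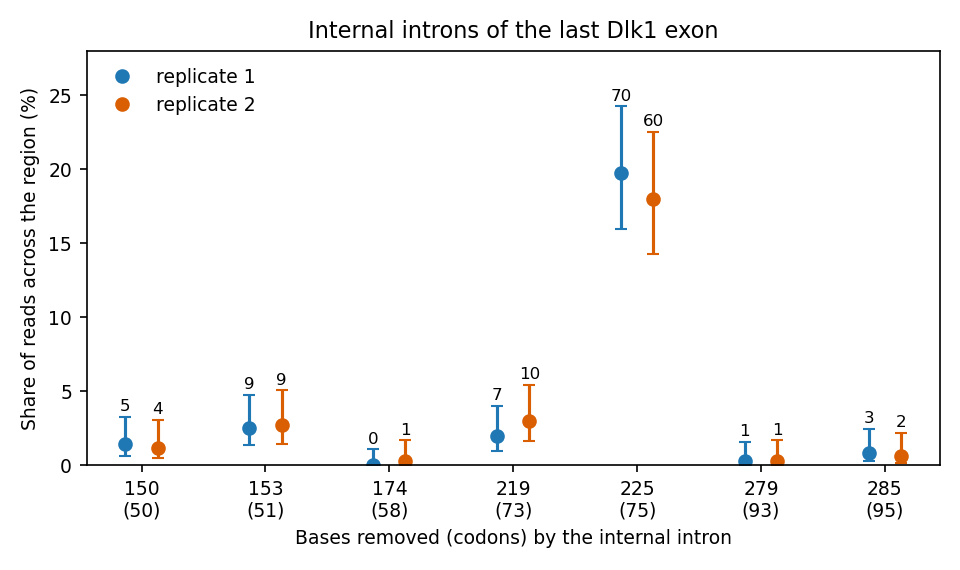
Share of the reads whose models reach across the region, in percent, for each of the 7 internal introns of the last Dlk1 exon. Introns are ordered by the bases (codons) removed. Points are the libraries, bars are Wilson 95% intervals and numbers above are reads. The 225-base intron stands at 19.8% and 18.0%, and each other form has at most 10 reads in a library.

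Meg3 was mostly read as single-exon models and partial chains. A single-exon read does not show whether its RNA was spliced elsewhere. Its single-exon models, all classed as genomic, held 48 of 85 reads in replicate 1 and 52 of 81 in replicate 2, 60.2% over both, and the other 37 and 29 reads were spliced. Full-splice reads were 20 of 85 (23.5%, Wilson 95% interval 15.8 to 33.6) in replicate 1 and 12 of 81 (14.8%, 8.68 to 24.1) in replicate 2. Both were far under the median of 87.4% over all genes. The difference between libraries did not pass the test (adjusted p = 0.916 in Fisher's exact test with Benjamini-Hochberg adjustment). Only 11 reads of Meg3 matched known models: Meg3-205 had 4 and 1, Meg3-207 had 2 and 3, and Meg3-204 had 0 and 1.

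The model with the most Meg3 reads differed in outline between the libraries but not in place. In replicate 1 it was a single exon of 5056 bases with 34 reads, and in replicate 2 one of 3096 bases with 36 reads, both ending at 109571723, at the 3′ end of the gene. A single-exon model does not give the extent of each read, and another such model of Meg3, with 2 reads, is 1 base long in the table. At the same 3′ end, within 5 bases, ended 28 and 21 spliced reads. A separate group ended early, in a longer form of the third exon, at 109545319, with 8 and 6 spliced and 4 and 7 single-exon reads. A single-exon model of 417 bases just after that end had 5 and 6 reads.

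Spliced Meg3 reads that started in exon 1 numbered 21 and 15, of which 12 and 8 ran to the 3′ end, in 8 distinct chains over both libraries. The forms with the most reads among those that did not match a known model were partial. A chain beginning at 109549255, just upstream of exon 6, with the introns between exons 6 to 8 kept, had 6 and 6 reads. A chain beginning further upstream, at 109549157, with those introns removed, had 5 and 2. A chain from exon 1 to the early end with the longer form of exon 2 had 3 and 5 reads, and a new in catalog chain of 9 exons without exon 4 had 3 and 2. Across libraries, 8 of 24 spliced Meg3 chains were shared, holding 47 of 66 spliced reads.

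Exon use in Meg3 varied at the 5′ side and was nearly constant at the 3′ side, numbering exons by Meg3-207. Exon 4 (94 bases) was included in 5 of 15 reads that could show it in replicate 1 and in 8 of 12 in replicate 2, 48.1% over both (Wilson 95% interval 30.7 to 66.0). Exon 2 ended at its longer donor in 8 of 21 and 10 of 15 reads, 18 of 36 over both (34.5% to 65.5%). Exon 5 was in 23 of 27 reads, exon 6 in 27 of 28, exon 7 in 36 of 36, exon 8 in 38 of 38 and exon 9 in 49 of 50. The third exon was read on to its early end in 8 of 23 and 6 of 18 reads, and the intron between exons 6 and 7 was kept in 6 of 26 and 7 of 22. For each of these choices the Wilson intervals of the libraries overlapped, and the difference was not tested.

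**Figure D4:**
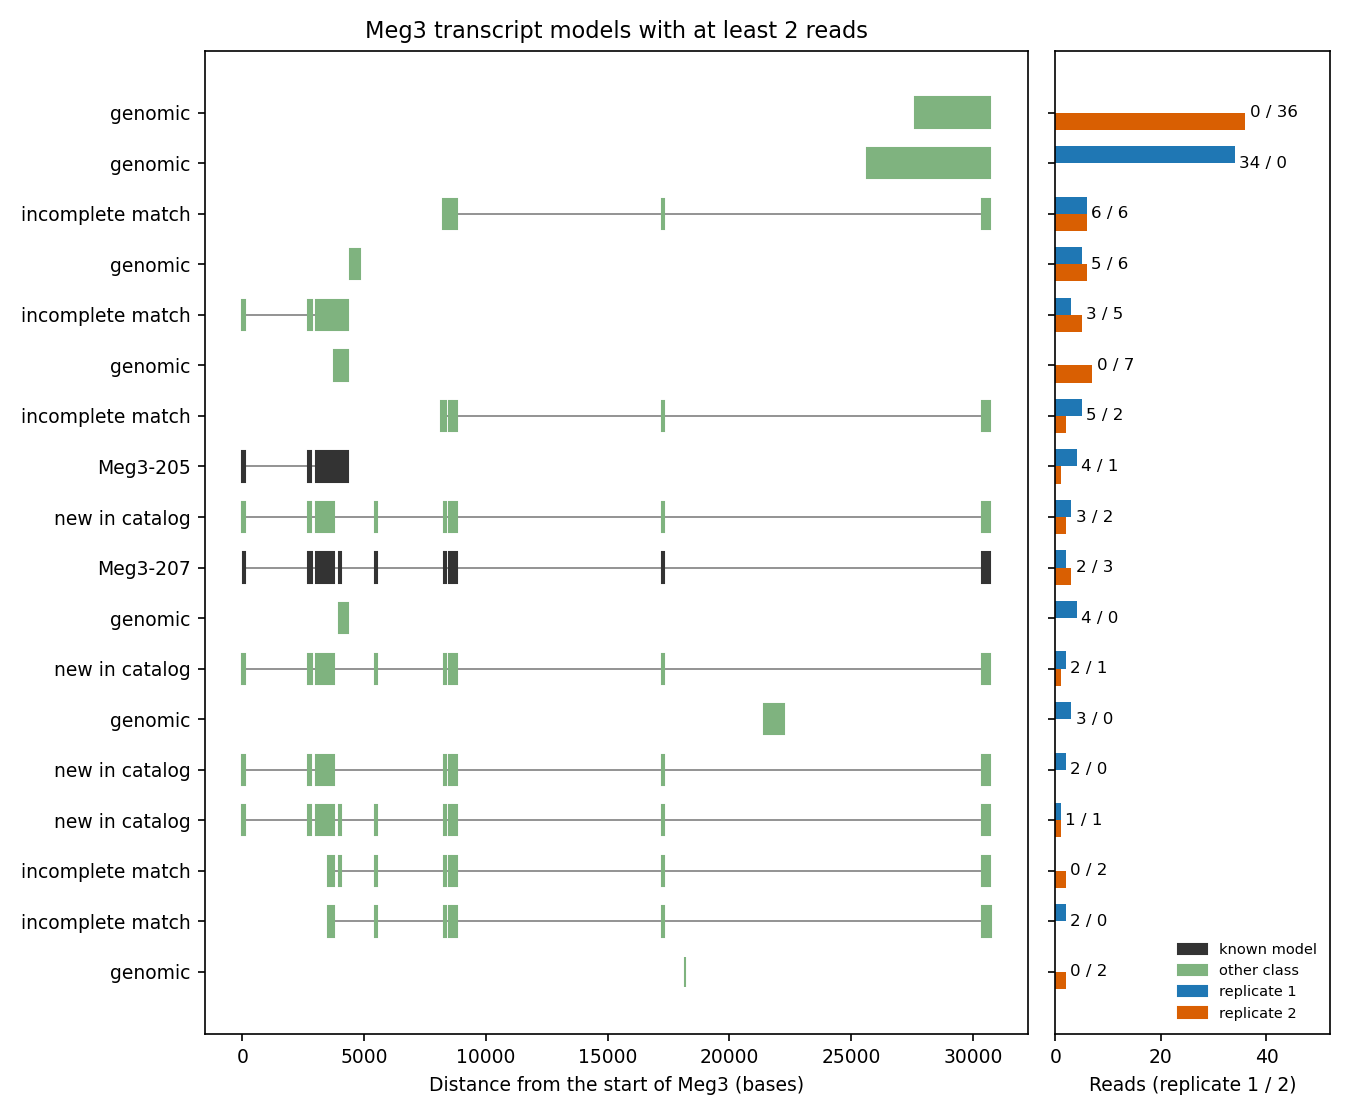
Transcript models of Meg3 with at least 2 reads over both libraries, drawn to scale by distance from the start of the gene in bases, with reads per library on the right. Single-exon models at the 3′ end lead with 34 reads in replicate 1 and 36 in replicate 2, while the known models Meg3-205 and Meg3-207 have 5 reads each over both libraries.

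The reads assigned to Rian and Mirg lay almost entirely at the 3′ ends of these genes. All reads assigned to Rian were in single-exon models classed as genomic, none spliced and none known. In replicate 1 its 5 reads formed a model of 106 bases, and in replicate 2 a model of 103 bases had 7 reads, both ending at the last base of the gene. The remaining read, in replicate 2, was in a model of 1623 bases that begins 126 bases from the start of the gene. With 0 of 5 and 0 of 8 reads spliced, the Wilson intervals allow spliced shares of up to 43.4% and 32.4%. These shares leave out 6 and 2 spliced reads in the span of Rian that are placed on the opposite strand and described below. Every intron of those reads has the coordinates of an annotated Rian intron. All 5 Mirg reads matched known models, 4 reads of Mirg-210 and 1 read of Mirg-207, which lie 18139 bases or more from the start of the gene. Mirg-207 has 2 exons, so 1 of the 5 Mirg reads was spliced (20.0%, Wilson 95% interval 3.62 to 62.4), and Mirg-210 is a single exon.

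Small RNA genes in the locus numbered 66 microRNAs, 23 snoRNAs and 4 genes of type misc_RNA in GENCODE M21, of which 45 microRNAs and 10 snoRNAs lie between the 4 genes. Some overlapped an exon of a model with reads on their own strand. Gm27300, a misc_RNA, was inside exons of Meg3 models with 21 and 15 reads. Mir3072 overlapped Mirg-210, with 0 and 4 reads, and Mir3071, on the minus strand, overlapped the single Rtl1 read of replicate 2. The snoRNA gene Gm24895 had 0 and 1 reads assigned to itself. These are long-read models, of which the known ones carry annotated ends, and they do not measure mature small RNAs. Mir770 lies in an annotated exon of Meg3 that no model with reads included.

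The strand opposite to the noncoding genes carried many reads of unannotated models, while that opposite to Dlk1 carried none. Within the span of Dlk1 the opposite strand had 0 and 0 reads, which allows shares of up to 1.04% and 1.11% (Wilson). Within Meg3 it had 25 and 28 reads, 22.7% (15.9 to 31.4) and 25.7% (18.4 to 34.6) of the reads on both strands. Within Rian it had 21 and 27 reads against 5 and 8 on the gene's strand, 80.8% (62.1 to 91.5) and 77.1% (61.0 to 87.9). Within Mirg it had 2 and 3 reads against 0 and 5. Over the 11094 genes the median share was 1.22%, and 244 genes (2.20%) were over 50%. The pooled share of Meg3 was above that of 91.0% of these genes and that of Rian above 99.6%.

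Between the genes, minus-strand reads of unannotated models were absent from Dlk1 to Meg3, with 0 and 0, but numbered 20 and 20 from Meg3 to Rian and 13 and 13 from Rian to Mirg. In Rian, 6 and 2 of the minus-strand reads were spliced, and every intron of these reads has the coordinates of an intron annotated for Rian on the plus strand. They are 109646752 to 109649153, 109649243 to 109650071 and 109650158 to 109651012. Over all unannotated models with introns in the tables, 756 of 2380 spliced reads (31.8%) in replicate 1 and 819 of 2495 (32.8%) in replicate 2 had only introns annotated on the opposite strand. An unspliced minus-strand model with 3 and 8 reads began at the last base of Rian and ran back into the gene. None of the 3 spliced minus-strand reads in Meg3, all in replicate 2, used annotated introns. ERCC spike-ins, synthetic RNAs made from a single strand, had 0.799% (0.676 to 0.944) and 0.790% (0.671 to 0.930) of their reads on the opposite strand. The part of strand assignment in the minus-strand reads of the locus was not tested.

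**Figure D5:**
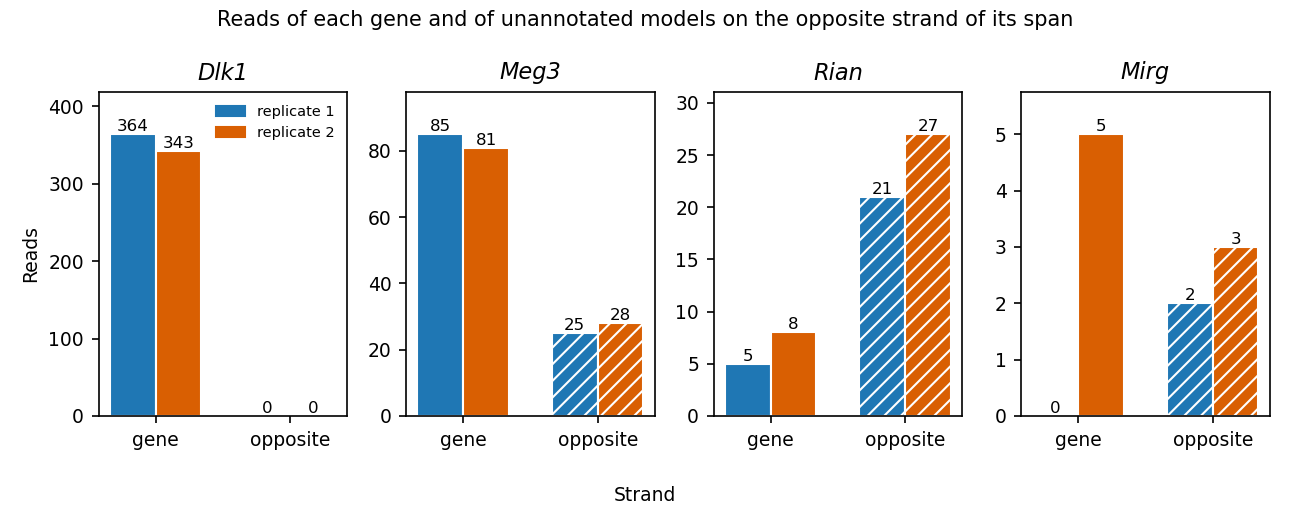
Number of reads on the strand of each gene and, hatched, of unannotated models on the opposite strand within its span, for both libraries, with a separate linear axis for each gene. Rian has 21 and 27 reads on the opposite strand against 5 and 8 on its own, and Dlk1 has 0 and 0 against 364 and 343.

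Rtl1, the retrotransposon-derived gene that is paternally read opposite to several microRNAs, had 1 read, in replicate 2, from a chain new not in catalog. On the plus strand opposite to Rtl1, 3 and 4 reads came from unannotated models. Gm34081 and Gm26906, minus-strand genes of the locus, had 2 reads each in replicate 1. The reads of Gm34081 lay between Dlk1 and Meg3 and those of Gm26906 within the span of Meg3. Neither is in the counts of unannotated models given above. Dio3, the thyroid hormone deiodinase at the far side of the imprinted region, had 1 read in each library, and its antisense gene Dio3os had 35 and 19 reads (adjusted p = 0.182 in the exact binomial test with Benjamini-Hochberg adjustment). The tables do not state whether the counting used strand for genes that overlap.

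Of 15 genes in and around the locus, 9 were tested, and 1 was higher in replicate 2 and 1 in replicate 1, beside 9.17% of all genes called. Dlk1 and Meg3 were among the 3 most abundant. Slc25a47, a mitochondrial carrier of liver, had 8 and 88 reads, 10.8-fold higher in replicate 2 (adjusted p = 5.78e-16 in the exact binomial test with Benjamini-Hochberg adjustment). Wars, the tryptophan transfer RNA ligase, had 133 and 84 reads, a ratio of 0.619 (adjusted p = 0.00953 in the same exact test, 0.0851 with TMM scaling). The other 7 tested, Dlk1, Meg3 and Rian among them, did not pass. The median log2 ratio of the 9 was -0.12, beside -0.15 over all genes tested.

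Of 35 Notch pathway genes, 33 had reads, 24 were tested and none was called between the libraries, beside 9.17% of all genes tested. None was with TMM scaling either, and the median log2 ratio was -0.27, beside -0.15 over all genes. Dlk1 had the highest level of the list, and the next were Ncstn and Psenen, subunits of the gamma-secretase that cuts Notch, at 91.4 ± 20.2 and 84.7 ± 3.42 CPM (SD, n = 2). Among receptors, Notch4 had 33 and 29 reads, Notch3 5 and 4, Notch2 3 and 4, and Notch1 3 and 1. Among ligands, Dll4 had 14 and 16 reads, Dll1 13 and 13, Jag2 11 and 6, and Jag1 5 and 7. Adam17, the protease known to shed Dlk1, had 41 and 28 reads, and Dlk2, the closest relative of Dlk1, had 2 and 2. The target gene Hes1 had 31 and 43 reads. Receptors, ligands, Adam17, Dlk2 and Hes1 were named after their values were seen. Each receptor and each of these ligands had at most 33 reads in a library, beside 364 and 343 of Dlk1. Any loss of long molecules was not corrected in these counts.

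Of 15 genes that keep imprints, 9 were tested, 1 was higher in replicate 1 and none in replicate 2, a share near the 9.17% of all genes called. Their median log2 ratio was -0.31, beside -0.15 over all genes. Trim28, the corepressor that KRAB zinc fingers recruit to imprinted regions, was that gene, with 211 and 147 reads, a ratio of 0.682 (adjusted p = 0.00763 in the exact binomial test with Benjamini-Hochberg adjustment, 0.109 with TMM scaling). Mbd3 and Kdm1a, chromatin repressor subunits, followed in level at 161 ± 16.1 and 44.2 ± 13.7 CPM (SD, n = 2). Zfp57, a zinc finger that protects imprints, had 2 and 0 reads and Zfp445, with a like role, 19 and 21; both were named after their values were seen.

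Of 11 genes of Polycomb complex 2, which Meg3 RNA has been described to bind, 10 were tested, 1 was higher in replicate 2 and none in replicate 1, again near the 9.17% of all genes called. Their median log2 ratio was -0.27. Jarid2, an accessory subunit, had 78 and 163 reads, 2.05-fold higher in replicate 2 (adjusted p = 4.32e-06 in the exact binomial test with Benjamini-Hochberg adjustment). Rbbp7 and Aebp2, other subunits, stood at 280 ± 19.3 and 47.2 ± 7.95 CPM (SD, n = 2). Of 14 genes that process small RNAs, 13 were tested and none was called under either scaling, beside 9.17% (7.86% with TMM) of all genes, with a median log2 ratio of -0.15. The highest were the snoRNA proteins Snu13, Fbl and Nop56, at 146 ± 6.50, 101 ± 10.2 and 95.5 ± 11.6 CPM (SD, n = 2).

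Of 24 imprinted genes of other loci, 16 were tested, 4 were higher in replicate 2 and 1 in replicate 1, beside 9.17% of all genes called. With TMM scaling 4 were called, all higher in replicate 2, beside 7.86% of all genes. H19, a maternally read noncoding RNA, had 34 and 126 reads, 3.63-fold higher in replicate 2 (adjusted p = 2.05e-11 in the exact binomial test with Benjamini-Hochberg adjustment). Its neighbour Igf2, the growth factor, had 0 and 11 reads (adjusted p = 0.0153 in the same exact test). Slc38a4, an amino acid transporter, had 7 and 64 reads, 8.95-fold higher in replicate 2 (adjusted p = 1.10e-10 in the same exact test). Cdkn1c, a cell cycle inhibitor, had 683 and 863 reads, a ratio of 1.24 (adjusted p = 0.000922 in the same exact test).

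Gnas, which encodes a G protein subunit, had 2550 and 2189 reads, a ratio of 0.841 (adjusted p = 1.43e-07 in the same exact test, 0.178 with TMM scaling), and Ndn, a paternally read gene, stood at 279 ± 24.2 CPM (SD, n = 2). Over the 16 genes the median log2 ratio was 0.10, beside -0.15 over all genes. H19, Igf2 and Slc38a4 were higher in the library with more liver transcripts, where Alb was 4393 CPM against 226 CPM, and the part of liver RNA in these differences was not tested. Whether this list and the 4 genes of the locus differ in how often genes are called was not tested either.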

How the data were processed

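Long reads of 2 adrenal libraries were analysed from the authors' deposited tables. The values are raw read counts per transcript model, 1 table per library, listed for models with at least 1 read and not normalized, per the file headers. Per the labels and the deposited description the build was mm10, with GENCODE M21, and the deposited annotation names TALON as its source. For the aligner, the TALON version and its filters, nothing is given in the sources used here. Known models are listed with annotated ends, so they do not show where each read began or ended.

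Counts were summed per gene. ERCC reads were left out by sequence name, 17018 (1.73%) in replicate 1 and 18103 (1.80%) in replicate 2 of 981697 and 1003061 reads, 136 and 143 of them on the opposite strand. Of the rest, 95.4% and 94.8% lay in annotated genes. Genes with at least 10 reads were put to an exact binomial test, two-sided, against the share of reads in replicate 2, and shares to Fisher's exact test, two-sided, where each library had at least 10 reads (20 full-splice reads for the top transcript). P-values were Benjamini-Hochberg adjusted over all genes, with a threshold of 0.05. Log2 ratios had 0.5 reads added. Intervals are 95% (Wilson for shares, exact for ratios and counts) and cover counting error only, since the counts carry no molecular identifiers. Reads were matched to the reference by gene identifier and exact intron chain. Exon 4 of Meg3 was counted with a tolerance of 6 bases and its early end with 2. Opposite-strand reads are those of unannotated models wholly within a gene's span. TMM factors came from edgeR 4.0.16 in R 4.3.3. Python 3.11.15, pandas 2.3.3, SciPy 1.17.1 and matplotlib 3.10.9 were used, and the tests were tested on simulated data. Alternatives were other scalings, minima and model classes, and each library alone.

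The members and lists were chosen with earlier results of these data known. Text names all known models, other models with at least 5 reads, and from each gene list the 3 with the highest mean CPM and those past the threshold. Small RNA genes are named where they overlap an exon with reads, except that 1 is not reported here. Exceptions are stated. No protein sequence was used here.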

Additional observations from a re-analysis of the deposited data

How the results depend on the processing

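Over 12 results, 53 alternatives were run, of which 47 were counted as keeping direction and side of the threshold or staying within the spread between libraries. Part of the 47 was fixed in advance. Each library alone was counted as kept without a check, since each of 2 libraries lies within the SD of their mean. Dropping the minimum of reads leaves a member's ratio unchanged and alters only its adjusted p-value. The count of 47 is therefore no measure of robustness. TMM scaling took the ratios of Dlk1 and Meg3 across 1, to 1.03 and 1.04, with neither called. Counting known models only moved the level of Dlk1 to 453 CPM, of Meg3 to 7.90 CPM and of Rian to 0 CPM. This setting also took the reads of known models as denominator, 702833 and 688235. Dlk1 had fewer reads in it, 329 and 301, so its higher level came from the smaller denominator. Most Meg3 reads and all reads assigned to Rian are in models of other classes. Annotated genes as denominator moved Meg3 to 89.6 CPM. The full-splice share of Meg3, 19.3% over both libraries, was 12.3% with models of at least 2 reads and 6.63% with known models only, still not different between libraries. Dlk1 last-exon splicing stayed between 26.1% and 28.3%, the higher value from spliced models only, an alternative chosen after seeing the data. Genes called between libraries ranged from 760 to 1017. Each library alone gave 348 to 377 CPM for Dlk1, 82.2 to 88.1 CPM for Meg3, 5.18 to 8.12 CPM for Rian and 0 to 5.08 CPM for Mirg. No paired analysis was possible because there is 1 group. Depth limits Rian and Mirg, with 13 and 5 reads assigned to them, of which 0 and 1 were spliced.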
